A study of Mus musculus with 30 samples.

Results

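The lipogenic genes described here are the transcription factors, enzymes and accessory protein with which a cell makes and desaturates fatty acids. The 10 genes were chosen by symbol: Srebf1, Mlxipl, Acly, Acaca, Fasn, Scd1, Scd2, Elovl6, Me1 and Thrsp. They are 10 of the 39179 gene IDs in the count files, and each symbol matched a single ID. RNA-seq had been done on the ventral prostate of 30 male C57BL/6 mice, 5 in each of 6 groups. From weaning the mice were fed 1 of 3 diets with a normal amount of fat, made with linseed oil (LO, rich in omega-3 polyunsaturated fatty acids), soybean oil (SO, rich in omega-6) or lard (PF, rich in saturated fatty acids). Glands were taken after 12 or 32 weeks of diet. Between 27590631 and 41301707 read pairs were counted to genes in each mouse. The question asked of the data was whether the source of dietary fat moved the expression of the genes that make new fat in the gland.

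As background, SREBP-1 (from Srebf1) and ChREBP (from Mlxipl) are transcription factors that switch on lipogenic genes in response to insulin and sugar. ATP citrate lyase (Acly) makes cytosolic acetyl-CoA, acetyl-CoA carboxylase (Acaca) turns it into malonyl-CoA, and fatty acid synthase (Fasn) joins these units into palmitate with NADPH that malic enzyme (Me1) helps to supply. Elovl6 lengthens palmitate to stearate, and the stearoyl-CoA desaturases Scd1 and Scd2 put the first double bond into it. Thrsp (Spot 14) is a small protein that promotes lipogenesis and is abundant in fat, liver and lactating mammary gland. In several lipogenic tissues dietary polyunsaturated fatty acids lower the activity of SREBP-1 and the expression of Scd1. Adipocytes carry most of these genes at high levels, and fat surrounds the prostate.

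The glands carried the markers of ventral prostate. All 9 luminal epithelial markers were counted in every mouse, led by the secretory gene Sbp, at a mean of 169560 CPM. CPM are the counts of a gene scaled to the size of its library. The 6 seminal vesicle markers summed to at most 0.307 CPM in any mouse, and the 5 sebocyte markers to at most 3.17 CPM. None of the 60 pairs of libraries within a group was identical or agreed within sampling noise (smallest chi-square per degree of freedom 22.7), so each library was counted as 1 sample. That chi-square is set against counting noise alone, which separate preparations of the same RNA could also exceed.

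The desaturases were by far the most expressed of the 10 genes. Per kilobase of exon, Scd2 averaged 240 ± 38.0 CPM and Scd1 191 ± 107 (SD, n = 30). Scd2 (ENSMUSG00000025203, chr19:44293674-44306864, plus strand) and Scd1 (ENSMUSG00000037071, chr19:44394455-44407879, minus strand) are paralogs on the same chromosome in GRCm38. Scd2 was the higher of the pair in 24 of 30 mice, and their ranges overlapped. Acly followed at 36 ± 3.91 CPM per kilobase, below Scd1 in all 30 mice. Srebf1 (17.0 ± 5.83) and Fasn (13.6 ± 4.76) came next and overlapped, with Srebf1 higher in 23 of 30 mice. Me1 (6.57 ± 2.28), Thrsp (6.16 ± 5.54) and Acaca (3.21 ± 1.14) formed a lower tier whose neighbours also overlapped. Elovl6 (0.837 ± 0.517) and Mlxipl (0.442 ± 0.223) were lowest, and Mlxipl rested on 29 to 208 counts per mouse.

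The genes differed widely in how much they varied between mice. Thrsp ranged 57.8-fold across the 30 mice, Elovl6 7.62-fold and Scd1 6.12-fold. Scd2 ranged only 1.88-fold and Acly 1.76-fold. Scd1 and Scd2, whose ranges of level overlapped, thus had very unequal spread from mouse to mouse.

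Scd1 gave the clearest diet difference of the 10 genes at 32 weeks. At 32 weeks Scd1 was at 632, 621, 1088, 741 and 591 CPM in LO mice 1 to 5, at 445, 519, 872, 609 and 755.5 CPM in SO mice, and at 1026, 2660, 669, 1106 and 2230 CPM in PF mice. PF mice 2 and 5 stood far above all others, 4 of 5 PF mice exceeded every SO mouse and 3 of 5 exceeded every LO mouse, while PF mouse 3 lay inside both groups. The Scd1 mean was 1538 ± 858 CPM in PF mice, 640 ± 174 in SO and 735 ± 205 in LO (SD, n = 5). The log2 fold change of PF against SO was 1.26 (SE 0.323), with an unadjusted p of 0.00138 and an adjusted p of 0.278 in edgeR's quasi-likelihood test with Benjamini-Hochberg adjustment over 16218 genes. Against LO the log2 fold change of Scd1 was 1.08 (SE 0.321, edgeR adjusted p = 0.357). With DESeq2's Wald test the same differences had adjusted p-values of 0.0236 against SO and 0.0741 against LO, so that Scd1 in PF against SO passed the threshold of 0.05 in DESeq2 and not in edgeR. Leaving out PF mouse 2 lowered the PF against SO value to 0.99, and leaving out single mice gave edgeR adjusted p-values of 0.228 to 0.587.

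At 12 weeks Scd1 was at 562, 728, 1036, 434 and 1415 CPM in LO mice 1 to 5, at 512, 557, 695, 717 and 1025 CPM in SO mice, and at 634, 1292, 896, 1085 and 1891 CPM in PF mice. The groups overlapped more than at 32 weeks: 3 of 5 PF mice exceeded every SO mouse and 1 of 5 exceeded every LO mouse. The log2 fold change was 0.74 against SO (SE 0.323, edgeR adjusted p = 0.549) and 0.48 against LO (SE 0.322, edgeR adjusted p = 0.692). The value against SO was 0.49 without PF mouse 5, and the value against LO was 0.23 without PF mouse 5 and 0.75 without LO mouse 5. The difference of PF against SO was 0.51 log2 units larger at 32 than at 12 weeks (SE 0.477), and this interaction did not pass the test (edgeR adjusted p = 0.821). It was 0.23 without PF mouse 2 of 32 weeks and 0.78 without PF mouse 5 of 12 weeks. In LO against SO the log2 fold change of Scd1 was 0.26 at 12 weeks (SE 0.321) and 0.19 at 32 weeks (SE 0.318), less than its SE at both times. It was -0.01 at 12 weeks without LO mouse 5 and 0.01 at 32 weeks without LO mouse 3.

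**Figure D1:**
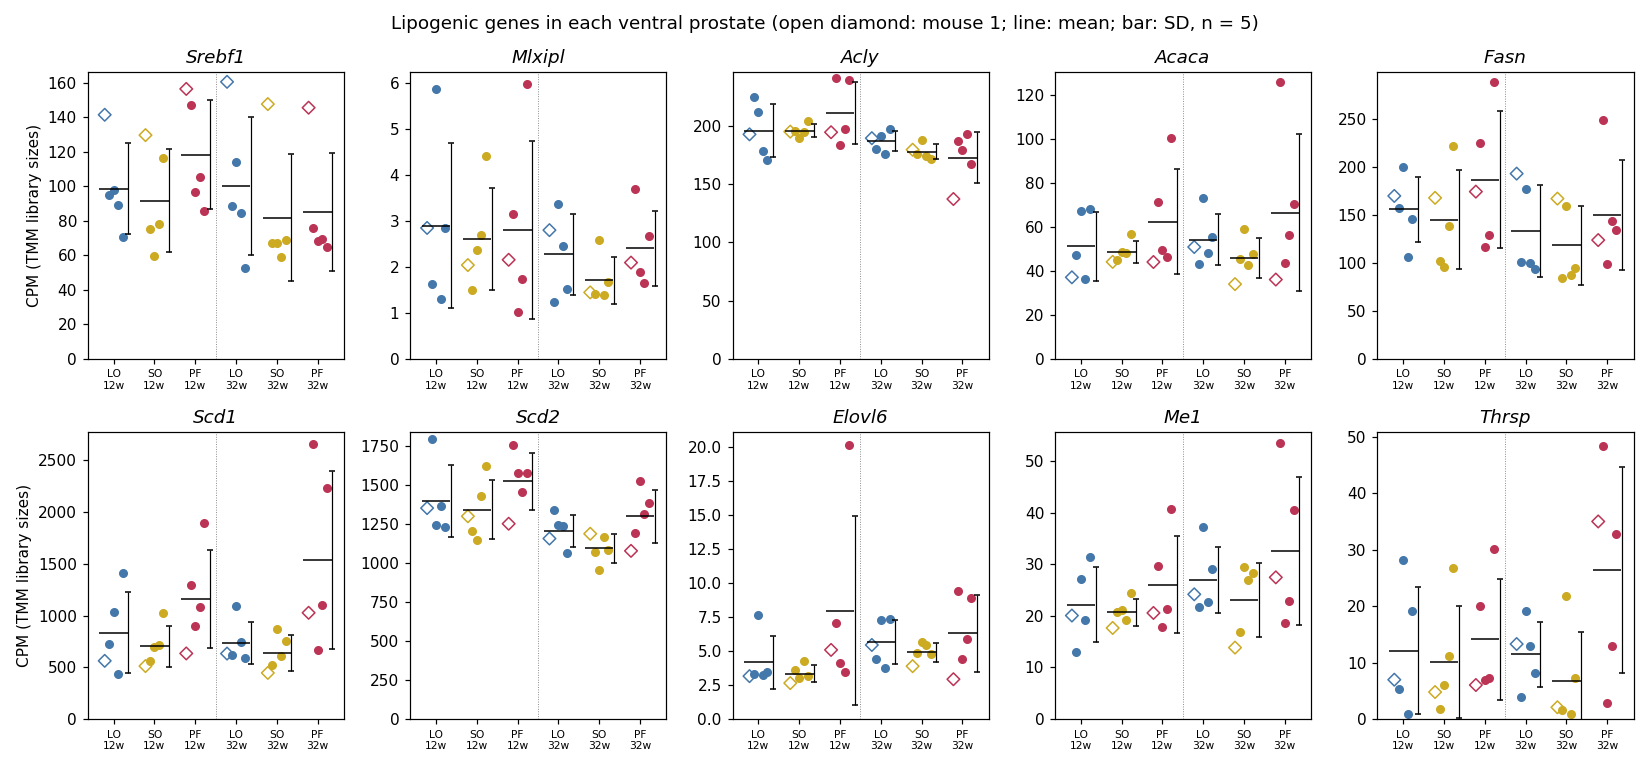
Each panel shows the CPM of 1 lipogenic gene (vertical axis, from 0) in every mouse of the 6 groups, with the group mean as a line, the SD as a bar (n = 5) and mouse 1 of each group as an open diamond. Scd1 and Thrsp reach 2660 and 48.3 CPM in PF mouse 2 at 32 weeks, Scd2 varies little, and Srebf1 is highest in mouse 1 of all 6 groups.

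Scd2, the desaturase isoform that predominates in brain and developing skin, was steadier. At 32 weeks Scd2 was at 1158, 1339, 1243, 1236 and 1064 CPM in LO mice 1 to 5, at 1189, 1073, 956, 1170 and 1084 CPM in SO mice, and at 1079, 1197, 1527, 1313 and 1384 CPM in PF mice. PF mouse 1 lay within the SO range and the other 4 PF mice lay above it. The log2 fold change of PF against SO was 0.25 (SE 0.0983, edgeR adjusted p = 0.409). At 12 weeks the Scd2 mean was 1399 ± 232 CPM in LO, 1343 ± 190 in SO and 1524 ± 186 in PF mice (SD, n = 5), and PF against SO was 0.20 (SE 0.123, edgeR adjusted p = 0.868). The ratio of Scd1 to Scd2, both per kilobase, exceeded 1 in 3 of 5 PF mice at 32 weeks (1.06, 2.48 and 1.80), in 1 of 5 SO mice at 32 weeks, and in 1 of 5 LO and 1 of 5 PF mice at 12 weeks.

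Across the whole set no gene passed the edgeR test in any diet comparison. At 12 weeks 0 of 10 lipogenic genes were called in PF against SO, against 0% of all 15873 genes tested, and 2 of 10 (Elovl6 and Scd1) had an unadjusted p under 0.05, against 7.99% of all genes (1269). In PF against LO at 12 weeks 0 of 10 were called (0% of all genes) and 1 of 10, Elovl6, had an unadjusted p under 0.05, against 9.24% (1466 genes). In LO against SO at 12 weeks 0 of 10 were called (0%) and 0 of 10 had an unadjusted p under 0.05, against 4.28% (679 genes). At 32 weeks 0 of 10 were called in PF against SO (0% of 16218 genes), and 3 of 10 (Scd1, Scd2 and Thrsp) had an unadjusted p under 0.05, against 10.8% (1748 genes). In PF against LO at 32 weeks 0 of 10 were called (0%) and 1 of 10, Scd1, had an unadjusted p under 0.05, against 8.6% (1394 genes). In LO against SO at 32 weeks 0 of 10 were called (0%) and 0 of 10 had an unadjusted p under 0.05, against 3.48% (565 genes). DESeq2 called 221, 76 and 0 genes in these comparisons at 12 weeks and 109, 84 and 6 at 32 weeks. Scd1 in PF against SO at 32 weeks was the 1 lipogenic gene among them, where 0.716% of 15218 genes were called. The 3 comparisons at a time point share mice and are not independent of each other.

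In PF against SO 10 of 10 were higher at 12 weeks and 9 of 10 at 32 weeks, with median log2 fold changes of 0.38 and 0.43, where the median over all genes was -0.01 and 0.00. In PF against LO 9 of 10 were higher at 12 weeks (median 0.26) and 8 of 10 at 32 weeks (median 0.18), against 0.00 and 0.01 over all genes. LO exceeded SO in 10 of 10 at both times, with medians of 0.11 and 0.20 against 0.00 over all genes. These directions depended on single mice. In LO against SO at 12 weeks each of the 10 values turned negative when some 1 mouse was left out, and Fasn did so at 32 weeks. In PF against SO the direction of Mlxipl at 12 weeks and of Srebf1 and Acly at 32 weeks turned with 1 mouse. In PF against LO that of Mlxipl and Thrsp at 12 weeks and of Srebf1, Mlxipl, Acaca, Fasn and Elovl6 at 32 weeks did. All 10 genes overlapped between the groups in each of the 6 diet comparisons, so that 0 of 10 were apart. Few genes were apart in any case: of 16605 genes, the groups did not overlap for 1.59% in PF against SO, 1.65% in PF against LO and 0.777% in LO against SO at 12 weeks, and for 2.32%, 1.2% and 0.662% at 32 weeks.

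**Figure D2:**
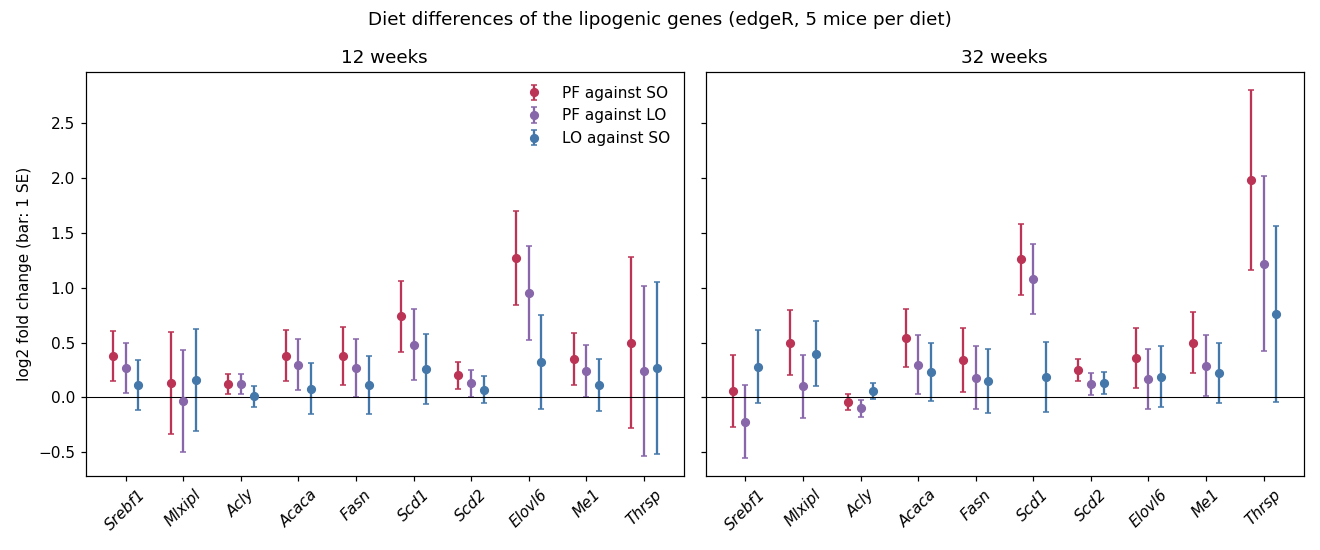
Log2 fold changes of the 10 genes (vertical axis, bars of 1 SE, edgeR, 5 mice per diet) for the 3 diet pairs at 12 weeks on the left and 32 weeks on the right. Thrsp in PF against SO at 32 weeks is the highest point at 1.98 and has one of the longest bars (SE 0.818), while Scd1 stands at 1.26 and Acly stays near 0.

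Of the transcription factors, Srebf1 (ENSMUSG00000020538, chr11:60199089-60222581, minus strand) was highest in the mouse numbered 1 of each group. At 12 weeks Srebf1 was at 141.5, 94.8, 97.8, 89.0 and 70.5 CPM in LO mice 1 to 5, at 130, 75.05, 59.35, 78.2 and 116.5 CPM in SO mice, and at 156.5, 147, 96.6, 106 and 85.7 CPM in PF mice. At 32 weeks Srebf1 was at 161, 88.65, 114, 84.45 and 52.85 CPM in LO mice, at 148, 67.1, 67.0, 58.8 and 68.9 CPM in SO mice, and at 146, 76.1, 68.2, 69.5 and 64.9 CPM in PF mice. Mouse 1 was the highest in 6 of 6 groups, and the diets overlapped at both times. Of the other members, Fasn was highest in mouse 1 of 2 of 6 groups, Scd2 of 1 and the rest of 0. Mouse 1 was the lowest of its group for Acaca and Elovl6 in 4 of 6 groups and for Scd1 in 3 of 6. It was the lowest for Scd2 and Me1 in 2, for Acly and Thrsp in 1, and for Mlxipl and Fasn in 0. The summed smooth muscle markers were highest in mouse 1 of 5 of 6 groups, and Des and Cnn1 of that list in 6 of 6. The summed luminal markers, mostly Sbp, were highest in mouse 1 of 0 of 6 groups and lowest in 1 of 6. Krt8 of that list, however, was highest in mouse 1 of 6 of 6 groups and Hoxb13 of 4 of 6. The summed adipocyte markers were neither highest nor lowest in mouse 1 of any group. The part of whatever sets these mice apart in the diet results was not tested, and every diet comparison was repeated without them. The log2 fold change of Srebf1 in PF against SO was 0.38 at 12 weeks (SE 0.228, edgeR adjusted p = 0.836) and 0.06 at 32 weeks (SE 0.331, edgeR adjusted p = 0.962), and the latter became -0.25 without PF mouse 1, 0.40 without SO mouse 1 and slightly negative without SO mouse 2, 3 or 4. Srebf1 overlaps Rai1 on the other strand (mean 44.3 CPM), and the strand setting of the counting was not given in the sources used here.

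Mlxipl lay between 1.01 and 5.98 CPM. Its log2 fold change in PF against SO was 0.13 at 12 weeks (SE 0.466) and 0.50 at 32 weeks (SE 0.292, edgeR adjusted p = 0.545). The value at 12 weeks was -0.35 without PF mouse 5 and -0.02 without SO mouse 2, and moved by over 1.5 times without several other mice. The value at 32 weeks was 0.30 without PF mouse 2.

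Among the enzymes of synthesis, Acly varied least: its PF against SO log2 fold change was 0.12 at 12 weeks (SE 0.0925) and -0.04 at 32 weeks (SE 0.0746). The value at 12 weeks was 0.07 without PF mouse 2 or 5, and the value at 32 weeks 0.03 without PF mouse 1 and -0.08 without PF mouse 4. Fasn at 32 weeks was at 193, 101, 177, 100.4 and 94.3 CPM in LO mice 1 to 5, at 167, 84.9, 159, 87.2 and 94.4 CPM in SO mice, and at 124, 249, 99.5, 144 and 134 CPM in PF mice. PF mouse 2 was the highest of all, and the other PF mice lay within the SO range. Fasn in PF against SO was 0.38 at 12 weeks (SE 0.266, edgeR adjusted p = 0.926) and 0.34 at 32 weeks (SE 0.289, edgeR adjusted p = 0.695), and these were 0.17 without PF mouse 5 of 12 weeks and 0.09 without PF mouse 2 of 32 weeks. Without SO mouse 5 the value at 12 weeks was 0.58. Acaca behaved alike, at 0.38 (SE 0.233) and 0.54 (SE 0.267, edgeR adjusted p = 0.478), with 0.14 and 0.19 without the same mice. Me1 stood at 0.35 (SE 0.236) and 0.50 (SE 0.275, edgeR adjusted p = 0.517), with 0.13 and 0.27 without them.

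Elovl6 (ENSMUSG00000041220, chr3:129532355-129638495, plus strand) had the highest log2 fold change at 12 weeks, and 1 mouse carried much of it. At 12 weeks Elovl6 was at 3.15, 3.27, 7.66, 3.21 and 3.49 CPM in LO mice 1 to 5, at 2.64, 3.63, 3.02, 4.26 and 3.14 CPM in SO mice, and at 5.08, 7.02, 4.14, 3.46 and 20.1 CPM in PF mice. PF mouse 5 stood apart, and 3 of 5 PF mice exceeded every SO mouse. PF against SO was 1.27 (SE 0.429, edgeR adjusted p = 0.321), and 0.57 without PF mouse 5 (edgeR adjusted p = 0.587). Over all the settings that left out a single mouse, the edgeR adjusted p ran from 0.183 to 0.587. PF against LO was 0.95 (SE 0.425, edgeR adjusted p = 0.525) and 0.25 without that mouse. At 32 weeks the Elovl6 value of PF against SO was 0.36 (SE 0.275, edgeR adjusted p = 0.661), 0.18 without PF mouse 2 and 0.20 without PF mouse 5.

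Thrsp (ENSMUSG00000035686, chr7:97412938-97417730, minus strand) was the most variable of the 10 genes. At 12 weeks Thrsp was at 6.96, 5.37, 28.1, 0.835 and 19.2 CPM in LO mice 1 to 5, at 4.78, 1.72, 6.07, 11.2 and 26.7 CPM in SO mice, and at 6.02, 20.1, 6.89, 7.33 and 30.2 CPM in PF mice. At 32 weeks Thrsp was at 13.3, 3.89, 19.2, 12.9 and 8.16 CPM in LO mice, at 2.085, 1.60, 21.7, 0.922 and 7.20 CPM in SO mice, and at 34.98, 48.3, 2.83, 13.0 and 32.8 CPM in PF mice. The groups overlapped, with a spread of several fold inside each, and at 32 weeks PF mice 1, 2 and 5 exceeded every mouse on the other diets. PF against SO was 1.98 at 32 weeks (SE 0.818, edgeR adjusted p = 0.419) and 0.50 at 12 weeks (SE 0.780). The value at 32 weeks was 3.16 without SO mouse 3. The value at 12 weeks was 0.02 without PF mouse 5, 0.32 without SO mouse 1, 0.23 without SO mouse 2 and 1.26 without SO mouse 5.

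Adipocyte markers varied in the same mice. The 14 markers were Adipoq, Plin1, Cidec, Cidea, Lep, Retn, Cfd, Adig, Fabp4, Car3, Lipe, Pck1, Plin4 and Ucp1. All 14 were found, 13 of them in every mouse and Ucp1 in some, and Car3 was the most abundant at a mean of 129 CPM. None was at 0 in all mice. At 12 weeks the markers summed to 391, 222, 1025, 65.1 and 1007 CPM in LO mice 1 to 5, to 253, 137, 385, 279 and 1279 CPM in SO mice, and to 265, 487, 218, 507 and 601 CPM in PF mice. At 32 weeks the sums were 335, 137, 529, 716 and 205 CPM in LO mice, 134, 85.8, 446, 79.9 and 516 CPM in SO mice, and 880, 1574, 131, 450 and 1296.5 CPM in PF mice. PF mice 2 and 5 at 32 weeks, the 2 mice with most Scd1, had the highest sums, and PF mouse 3, low in Scd1 and Thrsp, the lowest of its group. The hormone gene Adipoq was at 49.4, 85.3, 3.945, 25.3 and 75.4 CPM in these PF mice. In PF against SO at 32 weeks 11 of 12 tested adipocyte markers were higher, 0 were called by edgeR or DESeq2, 8 had an unadjusted p under 0.05, against 10.8% of all 16218 genes, and their median log2 fold change was 1.86, against 0.00 over all genes. The mean log2 level of the markers differed by 1.72 in that comparison (two-sided exact permutation test, p = 0.0794, adjusted p = 0.508 over 24 tests) and by 0.98 in PF against LO (exact permutation p = 0.222, adjusted p = 0.69). At 12 weeks the differences in mean log2 level were 0.23 (exact permutation p = 0.69) and 0.32 (exact permutation p = 0.738). The fold changes from group means had the opposite sign there: 2 of 13 markers were higher in PF than in SO, with a median of -0.18, and 1 of 13 higher than in LO, with a median of -0.29. In LO against SO 10 of 13 markers were higher at 12 weeks (median 0.20) and 11 of 12 at 32 weeks (median 0.59), with 0 called by edgeR or DESeq2. Their mean log2 level differed by -0.09 (exact permutation p = 0.944) and 0.74 (exact permutation p = 0.317). The smallest p that 5 mice against 5 can give is 0.00794.

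The level of a gene could then be set against the adipocyte markers over the 15 mice of a time point, as 20 relations in all with permutation tests and Benjamini-Hochberg adjustment. Thrsp followed the markers most closely, with Pearson r = 0.94 at 12 weeks and 0.94 at 32 weeks (permutation p = 1e-05, the smallest possible, adjusted p = 0.0001) and Spearman rho of 0.92 (permutation p = 2e-05) and 0.89 (permutation p = 3e-05). Without the 2 mice farthest from the median marker level r was 0.89 and 0.90, and after centring on the diet means 0.94 and 0.93. Scd1 had r = 0.73 at 12 weeks (permutation p = 0.00185, adjusted p = 0.00617, rho 0.76 with permutation p = 0.00156) and 0.84 at 32 weeks (permutation p = 2e-05, adjusted p = 0.000133, rho 0.85 with permutation p = 0.0001). Without the 2 farthest mice the r of Scd1 was 0.69 and 0.87, and within diets it was 0.79 at both times. The adjusted threshold was passed by 6 of 10 genes at 12 weeks (Mlxipl, Acaca, Fasn, Scd1, Me1 and Thrsp) and by 5 of 10 at 32 weeks, the same genes without Fasn. The smallest r among these was 0.63 at both times, and 0.868% of 16591 genes at 12 weeks and 2.05% at 32 weeks had an r at least as high, the adipocyte markers left out. Fasn at 32 weeks had r = 0.54 (permutation p = 0.0383, adjusted p = 0.0638, rho 0.52 with permutation p = 0.0487), and r = 0.37 without the 2 farthest mice.

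Scd2, Srebf1, Acly and Elovl6 did not pass the threshold at either time. Scd2 had r = 0.03 at 12 weeks (permutation p = 0.916, rho 0.12 with permutation p = 0.657) and -0.01 at 32 weeks (permutation p = 0.962, rho 0.14 with permutation p = 0.619). After centring on the diet means the r of Scd2 at 32 weeks was -0.49, and without the 2 farthest mice -0.16. Srebf1 had r = 0.09 (permutation p = 0.764, rho 0.16 with permutation p = 0.569) and 0.12 (permutation p = 0.672, rho 0.23 with permutation p = 0.415). Acly had r = 0.36 (permutation p = 0.185, rho 0.42 with permutation p = 0.119) and -0.19 (permutation p = 0.519, rho -0.12 with permutation p = 0.669). Elovl6 had r = 0.45 (permutation p = 0.0999, rho 0.38 with permutation p = 0.161) and 0.33 (permutation p = 0.224, rho 0.27 with permutation p = 0.334). How much of the PF difference in Scd1, Thrsp and the other genes comes with the adipocyte RNA of each sample was not tested, and in whole-gland RNA more cells of a type and more RNA per cell cannot be told apart.

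**Figure D3:**
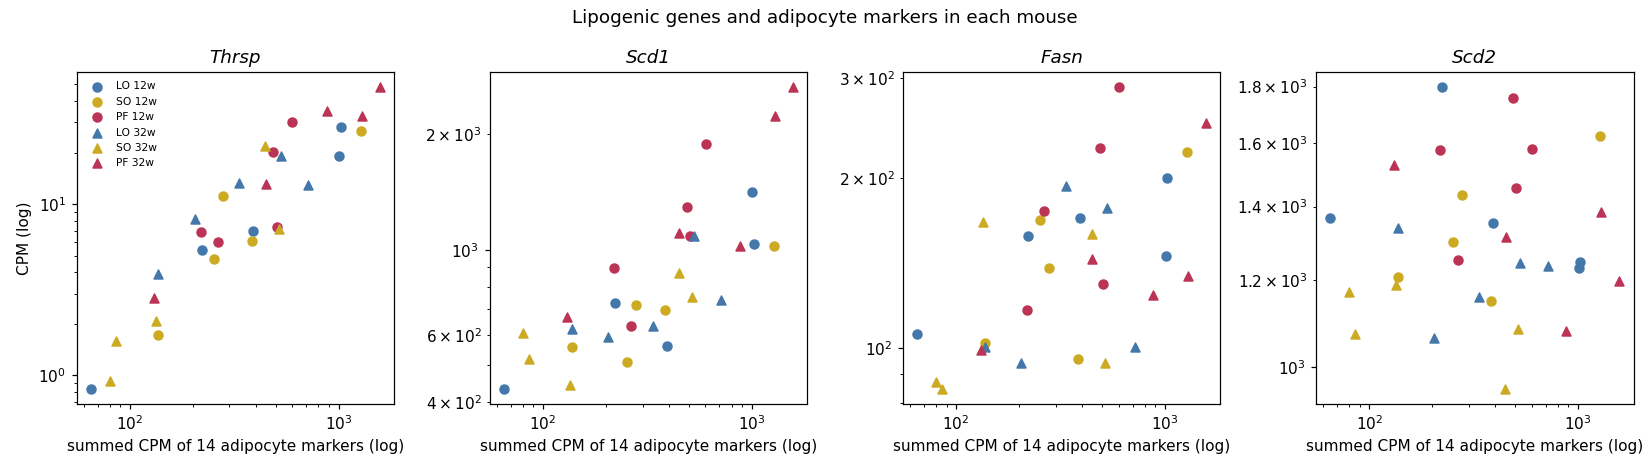
CPM of Thrsp, Scd1, Fasn and Scd2 (vertical axis, log scale) against the summed CPM of 14 adipocyte markers (horizontal axis, log scale) in each of the 30 mice, coloured by diet, with circles for 12 and triangles for 32 weeks. Thrsp and Scd1 climb with the markers (r = 0.94 and 0.84 at 32 weeks on the mean log2 level of the markers) and Scd2 does not (r = -0.01).

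Ucp1 stood out in a few mice. Ucp1, the uncoupling protein of brown and beige adipocytes, was at 32.3 CPM in LO mouse 3, 13.1 in PF mouse 5, 8.65 in SO mouse 4 and 3.435 in PF mouse 1 at 12 weeks, and at most 0.453 CPM in any mouse at 32 weeks. LO mouse 3 and PF mouse 5 were also the mice with most Elovl6 and Mlxipl at 12 weeks. The part of cells with Ucp1 in the Elovl6 difference was not tested.

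The genes whose pattern was most like Scd1 over the 30 mice, after subtracting the mean of each time point, were Orm1 (r = 0.87), Bche (0.85), Acaca (0.85), Cd300lg (0.85) and Pygl (0.85), out of 16604 genes ranked. Among the other lipogenic genes Me1 ranked 23 (r = 0.81) and Thrsp 30 (r = 0.81), and Adipoq ranked 55 (r = 0.77), while Scd2 ranked 2106 (r = 0.29) and Srebf1 10718 (r = -0.12). The genes most like Fasn were Acacb (r = 0.78), Gpd1 (0.78), Agpat2 (0.77), Pcx (0.75) and Mlxipl (0.74), with Thrsp at rank 10 (0.68). These r values are descriptions without a test.

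Because Mlxipl was among the 5 genes most like Fasn (r = 0.74), and ChREBP is a known activator of lipogenic genes, the 250 bases upstream of their starts are shown, from RefSeq on GRCm38.p6, written 5′ to 3′ on the strand of the gene. Capitals mark CCAAT (or ATTGG, the same motif on the other strand), the site of NF-Y, and the E-box CACGTG, which both strands share.
Fasn (chr11:120824548-120824797, minus strand): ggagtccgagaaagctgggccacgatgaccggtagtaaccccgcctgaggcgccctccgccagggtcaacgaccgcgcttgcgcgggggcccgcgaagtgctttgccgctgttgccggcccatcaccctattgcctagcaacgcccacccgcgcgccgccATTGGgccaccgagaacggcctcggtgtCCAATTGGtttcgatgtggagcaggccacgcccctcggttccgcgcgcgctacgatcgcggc
Mlxipl (chr5:135089640-135089889, plus strand): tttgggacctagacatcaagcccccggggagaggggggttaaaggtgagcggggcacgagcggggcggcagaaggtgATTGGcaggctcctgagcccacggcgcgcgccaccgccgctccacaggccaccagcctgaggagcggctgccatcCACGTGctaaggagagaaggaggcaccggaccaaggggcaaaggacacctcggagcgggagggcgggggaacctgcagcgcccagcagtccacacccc
The Fasn window held CCAAT in either direction 90, 62 and 59 bases before the start, the last 2 overlapping. The Mlxipl window held ATTGG 173 bases and CACGTG 98 bases before its start. Of all 32817 windows of this length, 33.8% held CCAAT on either strand and 6.02% held CACGTG. The sequence TCACNCCAC, a form of the sterol regulatory element, was in 1.05% of all windows and in neither of these. Mlxipl had a second window (chr5:135106641-135106890, plus strand), which held TCACNCCAC once and neither CCAAT nor CACGTG. The table of promoters held 8 of 10 genes with 12 windows, and 6 of the 12 windows held CCAAT on either strand. Scd1 and Scd2 were not in it. A match describes these letters only.

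No lipogenic gene passed the test between the times. Between 12 and 32 weeks 0 of 10 were called in LO mice, against 2.7% of 16605 genes (448), 0 of 10 in SO mice, against 6.46% (1073), and 0 of 10 in PF mice, against 0.0301% (5). An unadjusted p under 0.05 was reached by 0 of 10 in LO, 1 in SO (Scd2) and 2 in PF mice (Acly and Scd2), and by 20.5% (3404), 19.7% (3271) and 10.2% (1696) of all genes. DESeq2 called 0 of 10 in each, and 6.7% (1096), 7.84% (1484) and 0.291% (52) of all genes. Scd2 was lower at 32 weeks on all 3 diets, with log2 differences of -0.23 in LO (SE 0.113, edgeR adjusted p = 0.249), -0.29 in SO (SE 0.113, edgeR adjusted p = 0.134) and -0.24 in PF mice (SE 0.113, edgeR adjusted p = 0.468). Without single mice the Scd2 difference ran from -0.34 to -0.22 in SO and from -0.30 to -0.17 in PF mice. In LO mice, mouse 2 of 12 weeks was at 1798.7 CPM, against 1230 to 1368 in the others. The LO value was not examined without that mouse. Acly in PF mice differed by -0.30 (SE 0.0856, edgeR adjusted p = 0.232). For Scd1 the difference was -0.21 in LO (SE 0.337), -0.12 in SO (SE 0.337) and 0.39 in PF mice (SE 0.337, edgeR adjusted p = 0.725). It turned to 0.09 in LO and 0.05 in SO without mouse 5 of 12 weeks, and in PF mice it was 0.11 without mouse 2 of 32 weeks and 0.65 without mouse 5 of 12 weeks. Of the 14 adipocyte markers 0 were higher at 32 weeks in LO (median -0.66), 1 in SO (median -0.92) and 11 in PF mice (median 0.98). In the interaction of time with PF against SO 13 of 14 were higher (median 2.01). Among these edgeR called 0 and DESeq2 called Ucp1 in LO mice. Their part in the Scd1 values was not tested. The interaction of time and diet was called for 0 of 10 genes in each pair of diets, and for 0% of 16605 genes in each. In edgeR 0 of 10 had an unadjusted p under 0.05 for it, beside 1576 of all genes for the pair PF and SO, 1294 for PF and LO, and 553 for LO and SO, and DESeq2 called 0 of 10, beside 44, 14 and 0 of all genes. Age, time on diet and the handling of the samples cannot be told apart here.

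Genes around the pathway were read as lists, and edgeR and DESeq2 called 0 of them in the diet comparisons. Over all genes, 7.99% had an unadjusted p under 0.05 in PF against SO at 12 weeks and 10.8% at 32 weeks. Of 14 regulators of SREBP and ChREBP 1 had an unadjusted p under 0.05 in PF against SO at each time, and their median log2 fold change in PF against SO was -0.07 at 12 and 0.05 at 32 weeks. Those with the smallest p were Insig2, which retains SREBP in the endoplasmic reticulum, at 0.20 in PF against LO at 32 weeks (SE 0.0725, edgeR adjusted p = 0.451), and Srebf2, at -0.43 between 12 and 32 weeks in PF mice (SE 0.173, edgeR adjusted p = 0.395). Of the 11 genes of acetyl-CoA and NADPH supply, 11 were higher in PF than in SO at 32 weeks by a median of 0.12, and 1 had an unadjusted p under 0.05. At 12 weeks 8 of 11 were higher (median 0.04). Mdh1 in PF against LO at 32 weeks was 0.25 (SE 0.0997, edgeR adjusted p = 0.507), or 0.14 without PF mouse 1, and Idh1 between times in LO mice 0.24 (SE 0.109, edgeR adjusted p = 0.2). Of 16 tested genes of other desaturation and elongation 12 were higher in PF than in SO at 32 weeks, with a median of 0.11, and 1 had an unadjusted p under 0.05. At 12 weeks it was 10 of 16, with a median of 0.02. The median over all genes was -0.01 at 12 and 0.00 at 32 weeks. The polyunsaturated fatty acid desaturase Fads1 had a log2 fold change of -0.45 in PF against LO at 32 weeks (SE 0.129, edgeR adjusted p = 0.354). Between the times in LO mice DESeq2 called 1 of these 16 genes, Fads1, beside 6.7% of all genes. Elovl7 had a log2 difference of 0.39 between 12 and 32 weeks in SO mice (SE 0.12, edgeR adjusted p = 0.051). Its edgeR adjusted p was 0.0307 without mouse 3 of 12 weeks and 0.0207 without mouse 1 of 32 weeks. In SO mice over time DESeq2 called 1 of the 16, Elovl7, beside 7.84% of all genes. Of 19 tested genes of triglyceride and lipid droplet synthesis 17 were higher in PF than in SO at 32 weeks (median 0.19), and 5 had an unadjusted p under 0.05, beside 10.8% of all genes. The direction was the other at 12 weeks, when 4 of 18 were higher in PF than in SO (median -0.08) and 3 of 18 higher than in LO (median -0.09). By fold changes from group means the adipocyte markers had the same directions, with 11 of 12 higher in PF than in SO at 32 weeks (median 1.86) and 2 of 13 at 12 weeks (median -0.18), although their mean log2 level per mouse was 0.23 higher in PF than in SO at 12 weeks. Their part in the values of this list was not tested. Gpat3 between times in PF mice was 0.90 (SE 0.279, edgeR adjusted p = 0.283), and Gpat4 in SO mice -0.20 (SE 0.0651, edgeR adjusted p = 0.0564). The edgeR adjusted p of Gpat4 was 0.0317 without mouse 1 of 12 weeks and 0.0397 without mouse 3 of 32 weeks. In SO mice over time DESeq2 called 1 of the 19, Gpat4, beside 7.84% of all genes.

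Markers of other cells were read beside these results. Macrophage markers were higher in PF than in SO at 12 weeks in 9 of 9 (median 0.93), with 0 called by edgeR, 9 at an unadjusted p under 0.05 (7.99% of all genes) and 5 called by DESeq2 (1.26% of 17483 genes), with an exact permutation p of 0.0159 (adjusted p = 0.381) for their mean level. At 32 weeks 3 of 9 were higher in PF than in SO (median -0.10) and 0 of 9 higher than in LO (median -0.33). Between 12 and 32 weeks in SO mice 5 of 9 rose in edgeR, where 6.46% of all genes were called, among them Fcgr1 by 1.63 (SE 0.36, edgeR adjusted p = 0.00887), Adgre1 by 1.23 (SE 0.302, edgeR adjusted p = 0.0154), Lyz2 by 1.51 (SE 0.409, edgeR adjusted p = 0.0262) and Cd68 by 1.22 (SE 0.338, edgeR adjusted p = 0.0293). Of the 5, Fcgr1 passed whichever single SO mouse was left out. Adgre1 did not pass without SO mouse 1 of 12 weeks or 4 of 32 weeks, and Lyz2, Cd68 and C1qb did not without most single SO mice, with edgeR adjusted p-values up to 0.0626, 0.085, 0.0869 and 0.11 in turn. In LO mice 9 of 9 macrophage markers were higher at 32 weeks (median 0.97), with 9 at an unadjusted p under 0.05 (20.5% of all genes), 0 called by edgeR (2.7%) and 7 by DESeq2 (6.7%), and in PF mice the median was 0.05, with 0 at an unadjusted p under 0.05 and 0 called by either. Of 9 luminal markers 1, Sbp, fell over time in both LO and SO mice, where 2.7% and 6.46% of all genes were called, with log2 differences of -0.81 (SE 0.218, edgeR adjusted p = 0.041) and -0.96 (SE 0.219, edgeR adjusted p = 0.01). In LO mice it did not pass without mouse 2 or 3 of 12 weeks or mouse 1, 2, 3 or 5 of 32 weeks (edgeR adjusted p up to 0.152). Between diets Sbp was at 0.70 in PF against SO at 32 weeks (SE 0.251, edgeR adjusted p = 0.39). The summed level of the 9 luminal markers was higher by 0.59 log2 units there (two-sided exact permutation test, p = 0.0476, adjusted p = 0.508 over 24 tests). Sbp, at a mean of 169560 CPM over all mice, made up most of that sum. The mean log2 level of the 9 markers was higher by 0.12 (exact permutation p = 0.127). Of the 9, 5 were higher and 4 lower in PF than in SO, with a median log2 fold change of 0.05. PF mouse 2, the highest in Scd1, had the lowest luminal sum of its group, at 97292.5 CPM. The other 4 PF mice, at 162810.5 to 242229.9 CPM, lay above all SO mice, at 110391.1 to 125266 CPM. The part of this in the PF differences of the lipogenic genes was not tested. In the smooth muscle, skeletal muscle and sebocyte lists edgeR and DESeq2 called 0 genes. Myh11 of smooth muscle was at -0.38 in PF against SO at 32 weeks (SE 0.137, edgeR adjusted p = 0.39), or -0.24 without SO mouse 1, and Acta2 at -0.27 over time in PF mice (SE 0.116, edgeR adjusted p = 0.429). Ckm of skeletal muscle was at 3.29 over time in LO mice (SE 1.34, edgeR adjusted p = 0.155), a value that rested on mouse 1 of 32 weeks and was 0.80 without it. The 4 skeletal muscle markers summed to 472 CPM in that mouse and to 52.8 to 73.3 CPM in the other LO mice of 32 weeks. Mylpf was at 2.34 over time in SO mice (SE 0.968, edgeR adjusted p = 0.158). Of sebocyte markers, Awat2 was at -0.51 in PF against SO at 12 weeks (SE 0.201, edgeR adjusted p = 0.458) and Far2 at 0.47 in PF against LO at 32 weeks (SE 0.412, edgeR adjusted p = 0.786), the latter 0.06 without PF mouse 2 and 0.74 without LO mouse 2.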

How the data were processed

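Ventral prostate RNA had been sequenced in pairs after a stranded poly(A) kit. The deposited counts are whole read pairs per gene, which the authors made with TopHat2 and HTSeq on GRCm38.p6; versions, annotation release and strand setting are not given in the sources used here. Pairs in no gene (6.67 to 12.2%), in several genes (0.831 to 1.18%) or aligned to several places (16.0 to 20.3%) were left out, so reads that align equally well to Scd1 and Scd2 would not be counted. Symbols and exon lengths came from GENCODE (37607 of 39179 IDs named). Genes were filtered with filterByExpr and tested with edgeR 4.0.16 in R 4.3.3 (TMM library sizes, quasi-likelihood test, Benjamini-Hochberg, threshold 0.05): the 3 diets of a time point in 1 fit, and all 6 groups in 1 fit for time. Alternatives were DESeq2 1.42.0, other size factors, no filter, other sets of mice and the replicate number as a block. The SE given with an edgeR log2 fold change is its absolute value divided by the square root of the F statistic of the test. CPM used TMM library sizes. Marker levels were compared by exact permutation and correlations by 100000 permutations (scipy 1.17.1). The code was tested on simulated data. All 30 mice were used. Named genes were all 10 members, adipocyte markers, from each other list the up to 4 called genes with the smallest p (or, with none called, 2), and the 5 genes most like Scd1 and Fasn. The members and lists were chosen with earlier results of these data known. Krt8, Des, Cnn1, Hoxb13 and the single mice named were singled out after their values were seen.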

Additional observations from a re-analysis of the deposited data

Results flagged for a closer look

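Within the 60 groups of 5 mice (10 genes in 6 groups), 6 held a mouse far from the other 4. Its gap to the nearest was more than 0.71 of the range of the group. For independent values from a normal distribution this limit would pick out about 1 group in 20. CPM need not follow that distribution and the 10 genes share mice, so the 6 groups cannot be read against that rate. Srebf1 was 147.7 CPM in SO mouse 1 at 32 weeks, where the others lay between 58.8 and 68.9, and 145.6 CPM in PF mouse 1 at 32 weeks, where the others lay between 64.9 and 76.1. Elovl6 was 20.11 CPM in PF mouse 5 at 12 weeks, against 3.46 to 7.02 in the others, and 7.657 CPM in LO mouse 3 at 12 weeks, against 3.15 to 3.49. Mlxipl was 2.581 CPM in SO mouse 3 at 32 weeks, against 1.40 to 1.68 in the others. Scd2 was 1798.7 CPM in LO mouse 2 at 12 weeks, against 1230 to 1368.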

How the results depend on the processing

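Of 1236 log2 fold changes of the 10 genes under other settings, 1178 kept their sign and their side of the threshold, 57 changed sign and 1 came to pass the threshold. These covered all 10 genes between diets. Over time and in the interactions they covered only Scd1 and the values with an unadjusted p under 0.05, so turns of other genes there are not counted. All 20 correlations with the adipocyte markers kept their sign and their side of the threshold on the summed scale. The adipocyte level of LO against SO at 12 weeks turned from -0.09 to 0.06. Where a cause is not plain from the setting itself (fewer mice), the cause was not tested. Leaving out any single mouse, lipogenic genes called stayed at 0 in every comparison.

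DESeq2 called 221 genes in PF against SO and 76 in PF against LO at 12 weeks, and 109 in PF against SO (of the 10 genes 1, Scd1, at 1.27), 84 in PF against LO and 6 in LO against SO at 32 weeks. Over time it called 1096 genes in LO and 52 in PF mice, and for the interactions 44 (PF against SO) and 14 (PF against LO). With all 6 groups in 1 fit, PF against LO gave 2 genes at 12 weeks and 2 at 32 weeks. With only the 2 groups compared, LO against SO at 32 weeks gave 1. With no filter, PF mice over time gave 0. Without the mice numbered 1, an alternative chosen after seeing the data, PF against SO at 12 weeks gave 1, Mlxipl in PF against LO at 12 weeks turned to 0.04 and Acly in PF against SO at 32 weeks to 0.04.

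The mice numbered alike did not deviate together throughout: at 12 weeks 5 of 15 same-numbered pairs had a correlation over 0.1 (mean 0.0673), at 32 weeks 10 of 15 (mean 0.127). Of differently numbered pairs 18 of 60 did at each time (means -0.0165 and -0.0278). The mice numbered 1 correlated with each other in all 6 of their pairs within a time point, at 0.321 to 0.511. With the replicate block 0 genes were called in all 6 diet comparisons and in each interaction. Over time 668 were called in LO, 1224 in SO and 6 in PF mice, of the 10 genes 0. With this block Scd1 in the interaction of time with LO against SO changed from -0.08 to 0.02. Acaca in the interaction with PF against LO changed from 0.01 to -0.04. Over time in LO mice Thrsp changed from -0.10 to 0.37 and Srebf1 from 0.00 to -0.03.

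With 4 mice per diet at 32 weeks (LO 2 to 5, SO and PF 1 and 3 to 5), Fasn in PF against SO became -0.02, and in PF against LO Srebf1 became 0.05, Mlxipl -0.02, Acaca -0.08 and Elovl6 -0.03, and in LO against SO Srebf1 became -0.02 and Fasn -0.12. With mice 1 to 4, Mlxipl in PF against LO became -0.05.

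Leaving out 1 mouse at a time, genes called in PF against SO at 12 weeks ran from 0 to 131 (131 without PF mouse 5), in PF against LO at 12 weeks from 0 to 1 (LO mouse 5), in PF against SO at 32 weeks from 0 to 1 (PF mouse 2) and in the interaction of time with PF against SO from 0 to 3 (PF mouse 5 of 12 weeks). Over time they ran from 47 to 1043 in LO, from 226 to 1556 in SO and from 0 to 7 in PF mice. For LO the counts were 101, 47 and 714 without mice 2, 3 and 4 of 12 weeks, and 250, 82, 1043 and 186 without mice 1, 3, 4 and 5 of 32 weeks. For SO they were 673, 514 and 489 without mice 1, 4 and 5 of 12 weeks and 226 without mouse 4 of 32 weeks. For PF they were 0 without mice 1, 2 or 3 of 12 weeks or mouse 3 of 32 weeks, 1 and 2 without mice 4 and 5 of 12 weeks, and 2 and 3 without mice 2 and 5 of 32 weeks.

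The log2 fold changes whose sign depended on 1 mouse ran as follows. In PF against SO they ran at 12 weeks for Mlxipl from -0.35 to 0.40, and at 32 weeks for Srebf1 from -0.25 to 0.40 and for Acly from -0.08 to 0.03. In PF against LO they ran at 12 weeks for Mlxipl from -0.51 to 0.40 and for Thrsp from -0.25 to 0.82, and at 32 weeks for Srebf1 from -0.52 to 0.03, Mlxipl from -0.10 to 0.27, Acaca from -0.05 to 0.45, Fasn from -0.06 to 0.37 and Elovl6 from -0.01 to 0.35. In LO against SO they ran at 12 weeks for Srebf1 from -0.04 to 0.27, Mlxipl from -0.27 to 0.43, Acly from -0.05 to 0.05, Acaca from -0.04 to 0.18, Fasn from -0.01 to 0.31, Scd1 from -0.01 to 0.43, Scd2 from -0.04 to 0.14, Elovl6 from -0.02 to 0.43, Me1 from -0.05 to 0.25 and Thrsp from -0.31 to 1.03, and at 32 weeks for Fasn from -0.03 to 0.32. Over time Scd1 ran from -0.37 to 0.09 in LO and from -0.25 to 0.05 in SO mice, and in the interaction with LO against SO from -0.26 to 0.22. Over time and in the interactions, only Scd1 and the values with an unadjusted p under 0.05 were examined in this way. Other genes turned there too. Over time in PF mice 4 of 10 were higher with all mice and 6 without mouse 5 of 12 weeks. In the interaction with PF against SO 6 of 10 were higher with all mice and 4 without PF mouse 2 of 32 weeks. Counts per mouse were lowest for Mlxipl, at 29 to 208, beside 79 to 699 for Elovl6 and 31 to 1812 for Thrsp.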
